A study of Drosophila melanogaster with 6 samples.

Results

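The transcripts of 10 receptor tyrosine kinase genes other than Alk were measured in the larval central nervous system (CNS) of flies with an edited Alk receptor. They were taken by gene name and were Egfr, htl, btl, Pvr, Ret, Eph, Ror, Nrk, Cad96Ca and Ddr, that is, 10 of the 13416 genes in the expression table. All 10 passed the filter on low values, which asked for a mean normalized count of 10 or more, as did 9668 genes in total. Bulk RNA-seq was performed on CNS dissected from L3 (late-stage) Drosophila melanogaster larvae. The first genotype, Alk-YS, was homozygous for a CRISPR/Cas9-edited Alk allele, with serine in place of a tyrosine in the kinase domain. The control was labelled w1118, while the methods list as wild type the y1, {Mvas-Cas9}ZH-2A, w1118 stock that carries Cas9. The edit is in the endogenous gene and therefore in every cell of the animal. Each genotype had 3 biological replicates, and each replicate was a pool of CNS from many larvae. The comparison asked whether the edited receptor went along with other levels of the remaining receptor tyrosine kinases. Strain differences other than the edit cannot be told apart from the edit in these groups.

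Receptor tyrosine kinases are single-pass membrane proteins. When a ligand brings receptor chains together outside the cell, the kinase domains inside phosphorylate each other and recruit adaptor proteins that activate Ras/MAPK and related cascades. Because different receptors of the family share these adaptors, cells that carry several of them can feed several ligands into the same pathway. In the fly nervous system the EGF and FGF receptors are known for roles in neural and glial growth and survival, and Eph for axon guidance.

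Between 18770029 and 22333967 reads were assigned to genes per library. Alk itself was measured at 2575 ± 113 normalized counts in Alk-YS and 2503 ± 439 in controls (SD, n = 3 each). The edit changes a codon, so this level is no check of the labels. Summed over fixed markers, neuronal genes gave 38107 to 41752 normalized counts in Alk-YS and 38302 to 51890 in controls. Neuronal transcripts were thus present, but without a reference tissue these sums cannot check how clean the dissection was. Of the 7 neuronal genes, 6 had a negative log2 fold change, with a median of -0.26. An unadjusted limma p under 0.05 was found for 2 of them, against 13.8% of all genes, and 0 were called. Glial genes gave 16472 to 21306 in Alk-YS and 17699 to 20435 in controls. The summed neuroblast markers were at 7386 to 9580 normalized counts in Alk-YS and 5023 to 7391 in controls. All 5 had an unadjusted limma p under 0.05, against 13.8% of all genes, and 0 an adjusted p under 0.05. Muscle markers were at 1653 to 2320 in Alk-YS and 2972 to 3992 in controls. Of these, 2 of 7 were called lower, where 2.97% of all genes were called, and all 7 were negative. Fat body markers were at 2689 to 25627 in Alk-YS and 9743 to 94367 in controls, so transcripts of other tissues were present too. In bulk RNA, fewer cells of a type and less RNA per cell cannot be told apart.

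The 10 receptors spanned a wide range of levels. Compared per gene length, as FPKM (fragments per kilobase of gene, scaled to library size), Eph was the most abundant, at 54.3 ± 3.50 FPKM in Alk-YS and 55.8 ± 3.79 FPKM in controls (SD, n = 3 each). It stood at the 86.0th percentile of the tested genes. Next came the closely related Nrk, at 43.4 ± 4.08 FPKM in Alk-YS and 38.8 ± 4.64 FPKM in controls, and Ror, at 41.4 ± 2.29 FPKM in Alk-YS and 35.2 ± 4.19 FPKM in controls. Both belong to the Ror family, whose members have a kringle and a cysteine-rich Wnt-binding type of domain outside the cell. The ranges of Nrk and Ror over the 6 libraries overlapped, although Ror lay below Nrk in 6 of 6. Eph, Ror and Nrk together made up 74.8% to 78.9% of the summed FPKM of the 10 genes in each library.

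After a gap came Egfr, at 13.5 ± 0.172 FPKM in Alk-YS and 13.1 ± 1.57 FPKM in controls, whose range did not meet that of Ror. Ddr, at 9.31 ± 0.805 FPKM in Alk-YS and 10.3 ± 1.89 FPKM in controls, overlapped Egfr in range but was below it in 6 of 6 libraries. Cad96Ca, Pvr and htl formed the next step, with 6-library means of 6.73, 5.66 and 3.89 FPKM. In range Cad96Ca overlapped Pvr, and Pvr overlapped htl. Ret and btl were lowest, at 1.15 and 0.971 FPKM over the 6 libraries, and these neighbours overlapped, with btl below Ret in 4 of 6. The lowest receptors were therefore present, but only at the 10.6th (Ret) and 9.04th (btl) percentile of tested genes.

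**Figure D1:**
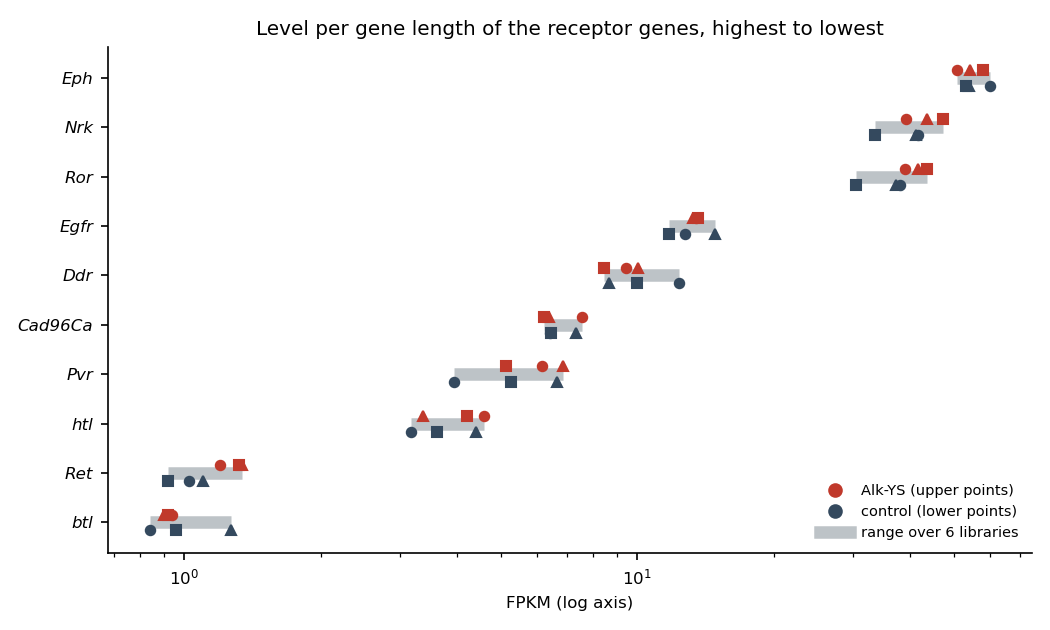
FPKM of each receptor gene in each library on a logarithmic axis, with genes ordered by their 6-library mean. Upper points are the 3 Alk-YS libraries, lower points the 3 controls, symbols mark the replicate number and grey bars the range over 6 libraries; Eph, Nrk and Ror lie between 30.4 and 60.1 FPKM and the other 7 genes at or below 14.8 FPKM.

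Between the genotypes 0 of the 10 receptors passed the test, limma on log2(normalized count + 1) with Benjamini-Hochberg adjustment over all tested genes at 0.05. Of all genes tested, 287 passed it, or 2.97%, so that a set of 10 genes would hold few calls or none at that rate. DESeq2 and edgeR on the recovered reads also called 0 of 10, where DESeq2 called 6.36% of all genes. At an unadjusted p under 0.05 none of the 10 passed in limma, DESeq2 or edgeR, against 13.8% of all genes in limma. The log2 fold change was positive for 6 receptors and negative for 4, with a median of 0.08, and over all genes the median was 0.01 with 51.6% positive. All 10 of the 95% intervals lay inside a 2-fold change in either direction, which was so for 79.3% of all genes. The farthest bound was the upper one of Ret, at 0.73 on the log2 scale or 1.66-fold. In 2 of the 10, Ret and Ror, the genotypes did not overlap, both with Alk-YS higher. Over all genes 19.5% did not overlap, 9.41% with Alk-YS higher and 10.1% with Alk-YS lower, so the count for the receptors is near the background.

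**Figure D2:**
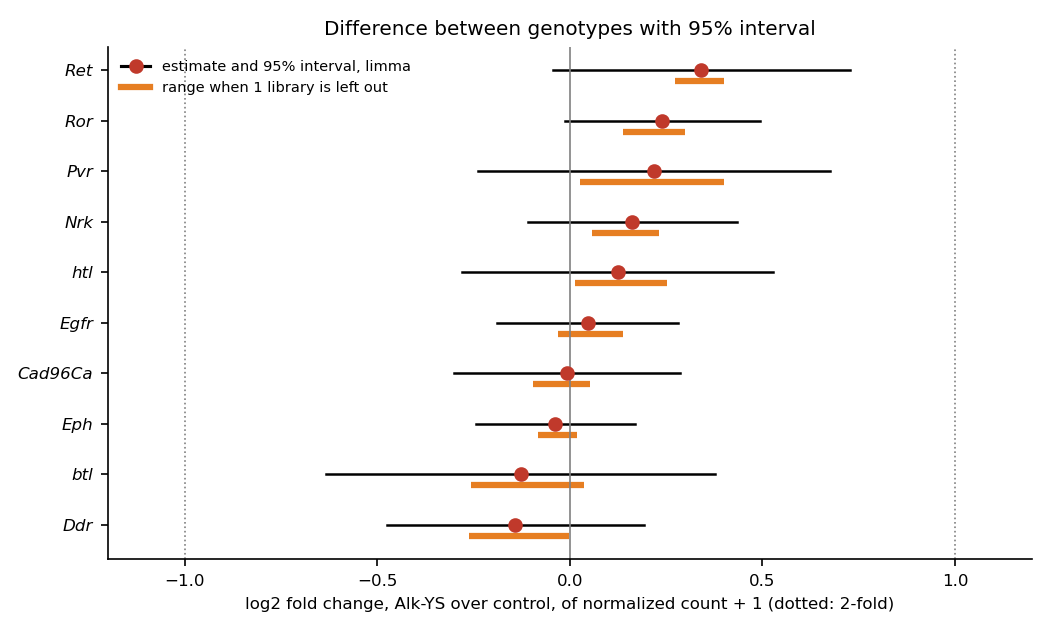
Log2 fold change of Alk-YS over control for each receptor, from limma on log2(normalized count + 1), with its 95% interval in black and, in orange, the range of the estimate when 1 of the 6 libraries is left out. Every black line crosses 0 and stays between the dotted lines of a 2-fold change.

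The gene with the largest estimate was Ret (FBgn0011829, chromosome 2L 21182446 to 21198762, minus strand, BDGP6). It encodes the relative of the vertebrate receptor for glial cell line-derived neurotrophic factors. Ret had 123, 135 and 137 normalized counts in Alk-YS libraries 1 to 3 and 105, 94.0 and 112 in controls 1 to 3. All Alk-YS libraries were thus above all controls, and the gap between the groups, from 112 to 123, was smaller than the range within either group. The means were 131.3 ± 7.58 in Alk-YS and 103.6 ± 9.14 in controls, a log2 fold change of 0.34 (SE 0.17, 95% interval -0.05 to 0.73) that did not pass limma (adjusted p = 0.442). The exact two-sided permutation test gave p = 0.1, the smallest possible with 3 libraries against 3. These counts rest on 126 to 147 reads in Alk-YS and 94 to 114 in controls, and counting error alone gives a coefficient of variation of 8.60% in Alk-YS and 9.95% in controls, as large as the spread between replicates (5.78% in Alk-YS and 8.82% in controls).

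Of the exonic bases of Ret, 7.47% are shared with Mcm10, a DNA replication gene on the opposite strand. Strand use in the counting was not given in the sources used here, so reads from this stretch could count for either gene or for neither. Mcm10 itself had 325, 509 and 376 normalized counts in Alk-YS and 211, 284 and 539 in controls, overlapping between genotypes. Its part in the Ret values was not tested. On the ligand side, maverick (mav), a TGF-beta family member reported as a Ret ligand in flies, had 1228 ± 127 normalized counts in Alk-YS and 1317 ± 82.8 in controls, a log2 fold change of -0.10 (limma adjusted p = 0.780). Gfrl, the relative of the vertebrate GDNF co-receptors, gave -0.07 with overlapping groups. Neither of these genes passed the test, and mav, the larger change of the list, was negative where Ret was positive.

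Ror (FBgn0010407, chromosome 2L 10251843 to 10254686, plus strand) was the other receptor without overlap. Its normalized counts were 1843, 2052 and 1970.0 in Alk-YS libraries 1 to 3, against 1797, 1435 and 1757 in controls 1 to 3. The lowest Alk-YS library exceeded the highest control by less than the spread within either group, and control 2 stood apart on the low side. On average Ror was at 1955 ± 105 in Alk-YS and 1663 ± 198 in controls, a log2 fold change of 0.24 (SE 0.11, 95% interval -0.01 to 0.49, limma adjusted p = 0.396), with an exact permutation p of 0.1. Without control 2 the estimate was 0.14. Only 3.39% of its exonic bases lie in a neighbour, CG5676 on the opposite strand, which itself ranged from 3618 to 4563 normalized counts in Alk-YS and from 3389 to 4803 in controls.

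Its relative Nrk (FBgn0020391, chromosome 2R 13160063 to 13163484, plus strand) encodes the neurospecific receptor kinase. Nrk had 2637, 3176 and 2931 normalized counts in Alk-YS and 2809, 2250.2 and 2774 in controls. Here the genotypes overlapped, because the first Alk-YS library lay below controls 1 and 3. The log2 fold change was 0.16 (SE 0.12, 95% interval -0.11 to 0.43, limma adjusted p = 0.655). Both Ror-family genes thus had their lowest value in control 2, and neither changed by a margin that the test could separate from the replicate spread. The neuroblast marker sum was higher in Alk-YS as well, with an adjusted p under 0.05 for 0 of its 5 genes, and its part in the Ret, Ror and Nrk values was not tested.

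Egfr (FBgn0003731, chromosome 2R 21522420 to 21559977, plus strand) encodes the only EGF receptor of the fly. The 3 Alk-YS libraries were nearly equal, at 1954, 1967 and 1919.8 normalized counts, and fell inside the span of the controls, at 1848, 1696 and 2141. The mean of 1947 ± 24.2 in Alk-YS and 1895 ± 226 in controls gave a log2 fold change of 0.05 (SE 0.10, 95% interval -0.19 to 0.28, limma adjusted p = 0.918). A change of more than 1.22-fold upward or below 0.876-fold lay outside that interval, the tightest after those of Eph.

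None of the tested genes that supply and tune EGF signalling passed the test. Of the 12 listed, 11 were tested, with 0 called, where 2.97% of all genes were called. The excluded gene, rho-6, had at most 1 read in any library. Spitz (spi), the main activating ligand, had 7867 ± 585 normalized counts in Alk-YS and 7248 ± 979 in controls (log2 fold change 0.12, limma adjusted p = 0.752). The other ligands Krn, grk and vn had log2 fold changes of 0.18, 0.32 and 0.11, with the groups overlapping for each. The largest value of the list belonged to stet, a rhomboid protease that cleaves EGF ligands, at 299 ± 39.3 in Alk-YS and 382 ± 75.4 in controls, a log2 fold change of -0.34 (limma adjusted p = 0.496). The negative-feedback genes aos, a secreted antagonist, and kek1, a transmembrane inhibitor, gave log2 fold changes of -0.03 and -0.09.

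The 2 FGF receptors were at low levels and did not pass the test. Heartless (htl, FBgn0010389, chromosome 3R 18045216 to 18052984, minus strand), which acts in mesoderm and in glia, had 391, 358 and 286 normalized counts in Alk-YS and 269.6, 307 and 374 in controls. The libraries of both genotypes were spread over nearly the same span. Its log2 fold change was 0.12 (SE 0.17, 95% interval -0.28 to 0.53, limma adjusted p = 0.852). Breathless (btl, FBgn0005592, chromosome 3L 14075772 to 14083229, plus strand), the receptor of tracheal cells, had 77.5, 75.8 and 74.4 normalized counts in Alk-YS and 69.3, 79.0 and 104 in controls. The Alk-YS values lay close together and inside the control range, whose top was set by control 3.

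For btl the log2 fold change was -0.13 (SE 0.22, 95% interval -0.63 to 0.38, limma adjusted p = 0.882), the widest interval among the receptors. It was measured on 71 to 84 reads in Alk-YS and 63 to 106 in controls. The spread of the Alk-YS replicates, 2.01%, was below the 11.3% that counting error gives, and in controls, at 21.5%, it was above the corresponding counting error. Tracheal markers, from the air tubes that enter the CNS, summed to 10796 to 15008 normalized counts in Alk-YS and 11775 to 13217 in controls. Of these 7 genes 0 were called, where 2.97% of all genes were called. In FPKM, htl exceeded btl by 4.89, 4.57 and 3.73 times in Alk-YS and by 3.77, 3.77 and 3.47 times in controls, so htl was the main FGF receptor transcript of both genotypes.

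Ligands of these receptors gave values in both directions. Branchless (bnl), the FGF that activates btl, had 84.8, 82.2 and 87.4 normalized counts in Alk-YS and 105, 114 and 110.2 in controls, with all Alk-YS libraries below all controls. Its log2 fold change of -0.37 (SE 0.17) did not pass limma (adjusted p = 0.405). Thisbe (ths), an FGF8-like ligand of htl, had 843, 749 and 752 in Alk-YS and 1104, 980.1 and 907 in controls, again without overlap, for a log2 fold change of -0.35 (SE 0.11, limma adjusted p = 0.181). The second htl ligand, pyramus (pyr), had 737, 669 and 725 in Alk-YS and 729.6, 643 and 505 in controls, a log2 fold change of 0.20 (limma adjusted p = 0.664) with overlapping groups. Whether ths and pyr differ in their response was not tested.

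Across the 7 genes of the FGF side 0 were called, while 3 had an unadjusted limma p under 0.05, against 13.8% of all genes. Besides ths these were sgl and sfl, named here after their values were seen, enzymes that make and sulphate the heparan sulphate chains needed by FGFs. Their log2 fold changes had opposite signs, 0.33 for sgl and -0.36 for sfl. Negative medians, like the values of bnl, ths and sfl, were found for markers of neurons (-0.26), hemocytes (-0.34), ring gland (-0.34), muscle (-0.84) and fat body (-3.05). The medians of neuroblast (0.49), imaginal disc (0.21) and trachea (0.06) markers were positive. Glia markers showed no direction, with a median of 6.7e-06, 4 genes positive and 4 negative. Called lower were 2 of 7 muscle, 1 of 6 hemocyte and 1 of 5 fat body genes, where 2.97% of all genes were called. The part of these cell types in the bnl, ths and sfl values was not tested.

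Pvr (FBgn0032006, chromosome 2L 8220980 to 8239878, minus strand), the PDGF/VEGF receptor of the fly, is known from the survival and migration of blood cells. It showed the largest scatter, with 852, 710.0 and 949 normalized counts in Alk-YS and 546, 726 and 917 in controls. The lowest library was control 1 and the highest Alk-YS 3, but the groups overlapped widely. The log2 fold change was 0.22 (SE 0.20, 95% interval -0.24 to 0.68, limma adjusted p = 0.738). The coefficient of variation was 14.3% in Alk-YS and 25.5% in controls, several times the counting error of 3.39% in Alk-YS and 3.73% in controls.

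Hemocyte markers summed to 5331, 7009 and 7981 normalized counts in Alk-YS libraries 1 to 3 and to 6778, 7176 and 11817 in controls 1 to 3. In each genotype replicate 3 was the highest for both this sum and Pvr. Alk-YS 1 had the lowest sum of its genotype but more Pvr than Alk-YS 2, at 852 against 710.0 normalized counts. The median log2 fold change of the hemocyte markers was negative (-0.34), while that of Pvr was positive (0.22). The part of blood cells in the Pvr values was not tested. Among its ligands, Pvf1 had 85.1 ± 20.9 normalized counts in Alk-YS and 74.5 ± 9.67 in controls, a log2 fold change of 0.17 (limma adjusted p = 0.866). Pvf2 gave a log2 fold change of 0.11 and Pvf3 of -0.04. Each of the 3 overlapped between the genotypes and 0 were called, where 2.97% of all genes were called.

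Eph (FBgn0025936, chromosome 4 610684 to 622470, plus strand) encodes the only Eph receptor of the fly, which responds to the membrane-bound ligand Ephrin during axon guidance. It was measured with the narrowest interval of the 10. Normalized counts were 6095, 6909.9 and 6478 in Alk-YS and 7198, 6362 and 6452 in controls. The groups were interleaved, the lowest library being Alk-YS 1 and the highest control 1. The log2 fold change of -0.04 (SE 0.09, 95% interval -0.24 to 0.17, limma adjusted p = 0.921) leaves changes beyond 0.844-fold and 1.12-fold outside the interval. Ephrin had 4444, 5098 and 4646 normalized counts in Alk-YS and 5405, 5743 and 4779 in controls, a log2 fold change of -0.16 (SE 0.10, limma adjusted p = 0.559) with overlapping groups.

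Downstream of Eph, the Ephexin gene Exn (FBgn0261547, chromosome 3L 16970013 to 16994388, plus strand) was called higher. Exn is known to act with Eph at the neuromuscular synapse. It had 1102, 1025 and 985 normalized counts in Alk-YS and 647, 615 and 789 in controls. No Alk-YS library reached down to the highest control. The means of 1037 ± 59.4 in Alk-YS and 684 ± 92.8 in controls differed by a log2 fold change of 0.61 (SE 0.12, 95% interval 0.33 to 0.88), or 1.52-fold, with a limma adjusted p of 0.0415. The call was close to its threshold. It was kept with edgeR (adjusted p = 0.0459), DESeq2 (adjusted p = 0.000814), TMM scaling, the other pseudocounts and the other filters. It was lost with the FPKM table (limma adjusted p = 0.0877) and with replicate number as a block (limma adjusted p = 0.0739). It was also lost in 5 of the 6 fits that left a library out, all but that without control 3. The direction was the same in each of those fits. On the log2 scale the estimate was 0.51 with the FPKM table and between 0.54 and 0.71 when a library was left out.

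The remaining receptors have known roles in epithelia and in matrix contact. Cad96Ca (FBgn0022800, chromosome 3R 25197571 to 25208283, minus strand), also called Stitcher, carries a cadherin repeat and acts in epidermal wound repair. It had 462, 379 and 389.7 normalized counts in Alk-YS and 393, 395 and 447 in controls. Both the highest and the lowest library were Alk-YS, and the means were nearly equal, at 410.2 ± 45.1 in Alk-YS and 412 ± 30.6 in controls. The log2 fold change was -0.01 (SE 0.13, 95% interval -0.30 to 0.29, limma adjusted p = 0.991), the smallest of the 10.

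Ddr (FBgn0053531, chromosome 2L 6253123 to 6323466, plus strand) carries the discoidin domain, which binds collagen in the vertebrate members of its family. It had 997, 889 and 1058 normalized counts in Alk-YS and 1309, 1052 and 914 in controls. Control 1 was highest and Alk-YS 2 lowest, with the other 4 libraries between them in mixed order. The log2 fold change of -0.14 (SE 0.14, 95% interval -0.48 to 0.19, limma adjusted p = 0.782) was the most negative of the receptors. At 70.3 kb Ddr also has the longest span of the 10 genes, and 0 of its exonic bases were shared with another gene.

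**Figure D3:**
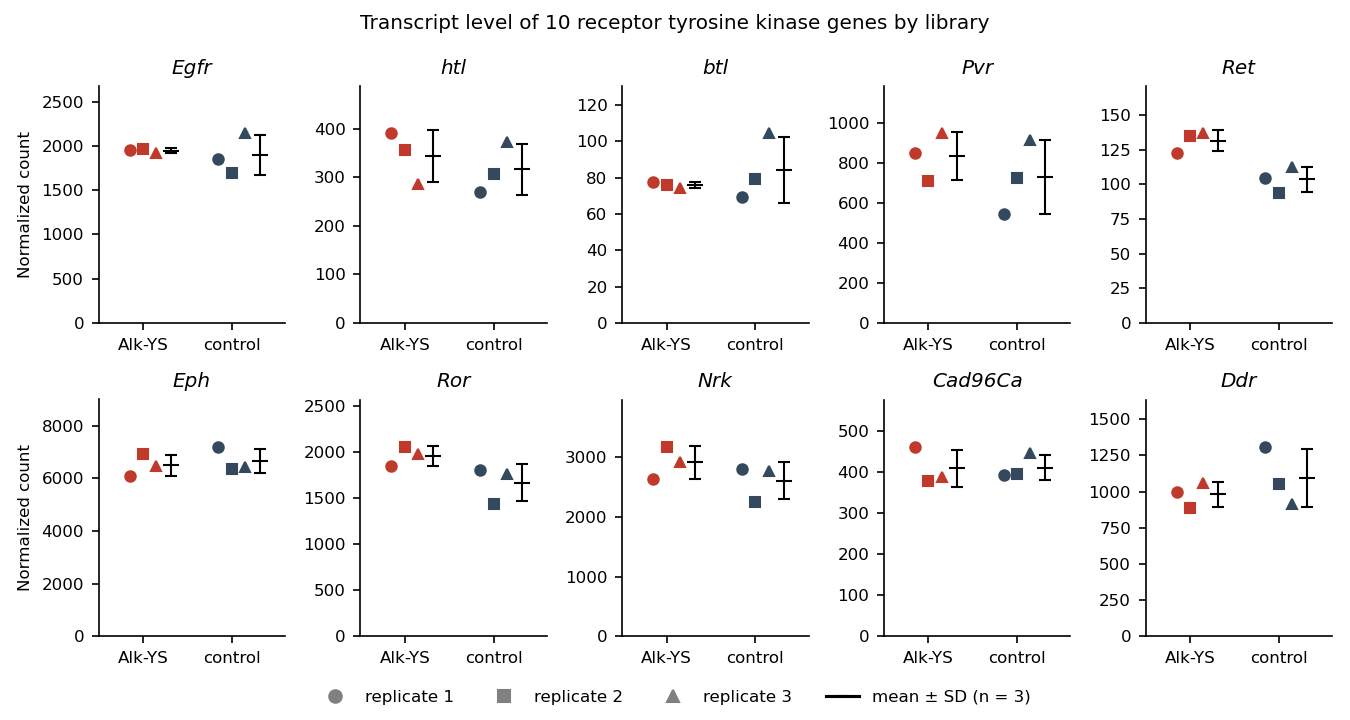
Normalized counts of each of the 10 receptors in the 3 Alk-YS libraries (left, red) and the 3 controls (right, dark blue), with the mean ± SD of each group in black and every vertical axis starting at 0. Groups separate only for Ret and Ror, by a narrow margin, and the control SD exceeds the Alk-YS SD for 8 of the 10 genes.

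The receptors did not vary as a block across libraries. The highest of the 6 libraries exceeded the lowest by between 1.18-fold (Eph) and 1.74-fold (Pvr). Control 2 was lowest for 4 receptors, Egfr, Ret, Ror and Nrk. It also had the highest fat body marker sum, with 31981, 94367 and 9743 normalized counts in controls 1 to 3. The part of fat body in these receptor values was not tested. Control 1 was lowest for another 3, htl, btl and Pvr, and highest for Eph and Ddr. Each of Alk-YS 1, 2 and 3 was highest for 2 receptors. Summed over the 10 genes, normalized counts were 15430.3, 16651 and 16194 in Alk-YS and 16343, 14396 and 15993 in controls, with the genotypes overlapping.

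**Figure D4:**
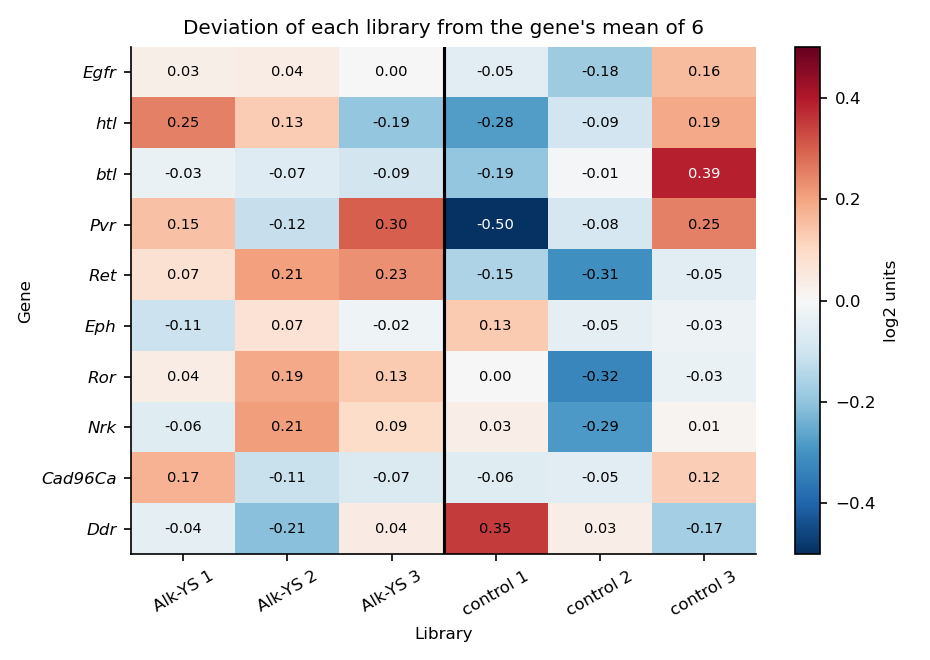
Deviation of each library from the mean of the 6 libraries, in log2 units, for each receptor (rows) in the 3 Alk-YS and the 3 control libraries (columns, divided by the black line); red is above and blue below the mean. The strongest values are isolated, such as Pvr in control 1 at -0.50 and btl in control 3 at 0.39, and only Ret and Ror have 1 sign throughout Alk-YS and the other throughout the controls.

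In the annotation the receptors differ in architecture. Pvr has the most transcripts, 13 built from 28 distinct exons, while Ror, Nrk and Cad96Ca have 1 each. The longest annotated protein runs from 685 residues in Ror to 1577 in Pvr. Exonic bases are shared with another gene for 5 receptors, between 3.39% of the length in Ror and 7.73% in Nrk, and for none of Egfr, htl, Pvr, Cad96Ca and Ddr. Values are per gene, so a shift between transcripts of a gene was not measured.

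Adaptors and effectors that the receptors share did not pass the test. Of the 9 listed (drk, Shc, dos, csw, Cbl, sl, vap, Src42A and Src64B) 0 were called, against 2.97% of all genes. An unadjusted limma p under 0.05 was found for 0, against 13.8% of all genes. The largest value was that of Src64B, a Src-family kinase, with 3751 ± 56.0 normalized counts in Alk-YS and 3187 ± 449.9 in controls, a log2 fold change of 0.24 (limma adjusted p = 0.395). In that gene all Alk-YS libraries were above all controls. Over all 34 tested ligand, cofactor and adaptor genes, 1 was called higher and 0 lower, where 2.97% of all genes were called, and the median log2 fold change was -0.03. Groups did not overlap for 5 of the 34 with Alk-YS higher and for 5 with Alk-YS lower, against 9.41% and 10.1% of all genes.

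**Figure D5:**
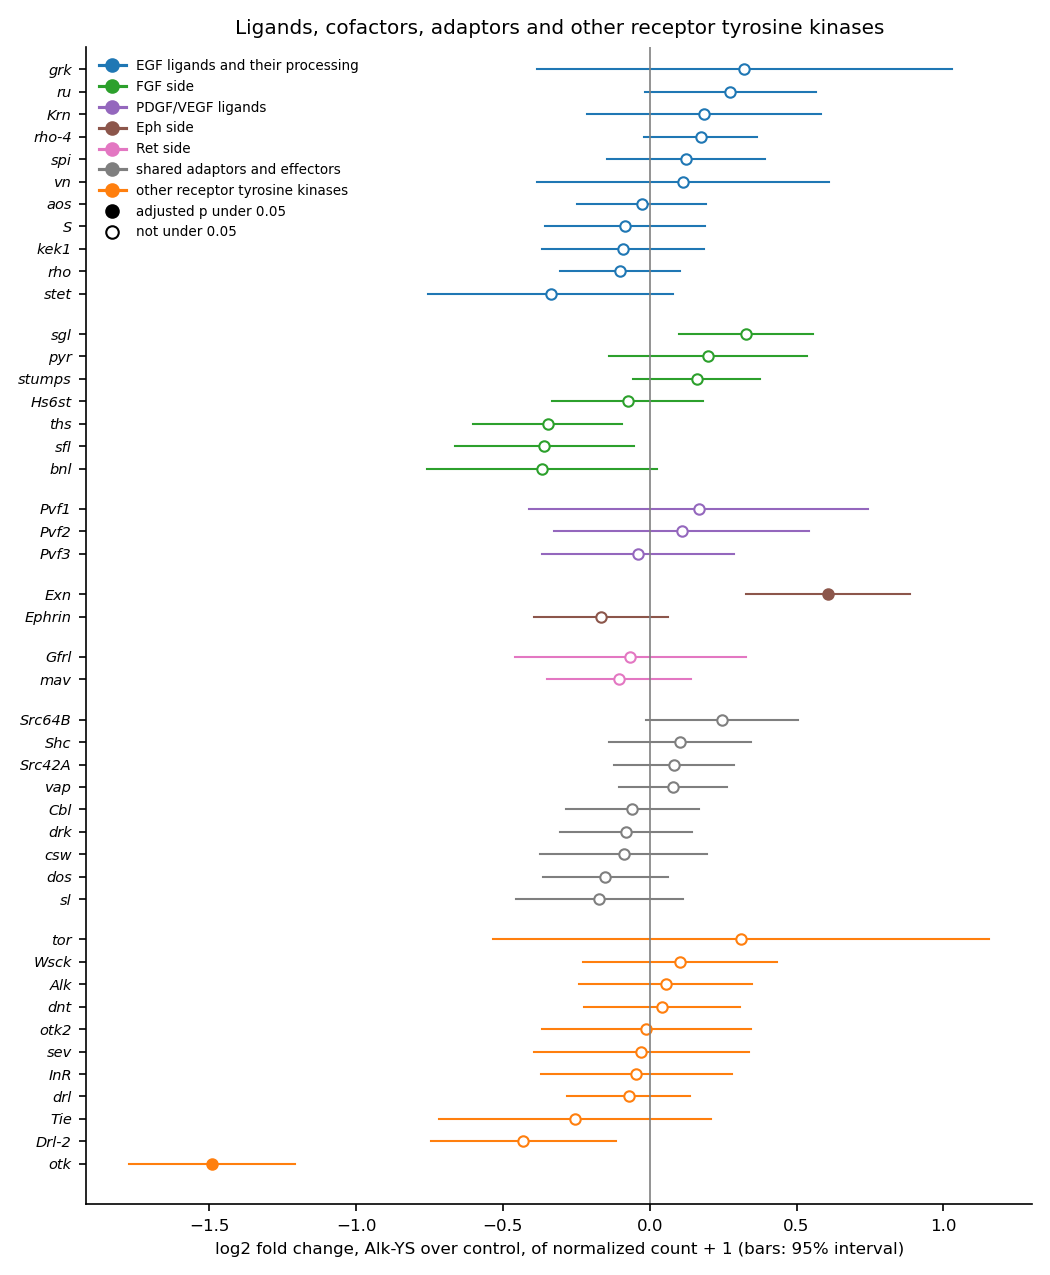
Log2 fold change of Alk-YS over control with its 95% interval for the 34 tested ligand, cofactor and adaptor genes and the 11 other receptor tyrosine kinases, coloured by list and ordered within each list. Filled points have a limma adjusted p under 0.05; these are Exn at 0.61 and otk at -1.49.

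Among 11 further receptor tyrosine kinases and kinase-dead relatives, including Alk, 1 was called, with Alk-YS lower, where 2.97% of all genes were called. This was otk (FBgn0004839, chromosome 2R 12001473 to 12019846, minus strand), which encodes off-track, a PTK7-type pseudokinase that acts in axon guidance and Wnt signalling. It had 2246, 1842 and 2365 normalized counts in Alk-YS and 6668, 5429 and 5990.4 in controls. The groups were far apart, with each control above the highest Alk-YS library by more than the whole range within either genotype. The means were 2151 ± 274 in Alk-YS and 6029 ± 621 in controls, a log2 fold change of -1.49 (SE 0.12, 95% interval -1.77 to -1.21) with a limma adjusted p of 0.000976. The call held in all alternatives, with estimates between -1.56 and -1.38 when a library was left out.

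Per gene length, otk was at 22.6, 18.6 and 23.9 FPKM in Alk-YS and at 67.2, 54.8 and 60.4 FPKM in controls. In Alk-YS it thus stood below Eph, Nrk and Ror in each library, and in controls above all 10 receptors. The related otk2, which is its neighbour on the chromosome and is named after its values were seen, had 786 ± 38.5 normalized counts in Alk-YS and 803 ± 160.4 in controls, a log2 fold change of -0.01 (95% interval -0.37 to 0.34) that does not meet the interval of otk. The insulin receptor InR was at 2337 ± 70.9 in Alk-YS and 2443 ± 493 in controls (limma adjusted p = 0.945). Of the 10 remaining genes of that list 0 were called, and the median of the 11 was -0.03. An unadjusted limma p under 0.05 was found for 2 of the 11, otk and Drl-2, against 13.8% of all genes. Drl-2 had a log2 fold change of -0.43 (limma adjusted p = 0.181), with all Alk-YS libraries below all controls. Among marker genes, the median log2 fold change was -0.84 for muscle, where 2 of 7 were called lower. For fat body the median was -3.05, with 1 of 5 called lower and summed counts of 2689 to 25627 in Alk-YS and 9743 to 94367 in controls. Of the 6 hemocyte genes 1, NimC1, was called lower (log2 fold change -3.49), where 2.97% of all genes were called. The hemocyte median was -0.34, with 5 genes negative and 1, eater, positive at 0.85. Neuron and ring gland medians were negative as well, at -0.26 and -0.34, while neuroblast, trachea and imaginal disc medians were positive. The part of these cell types in the otk value was not tested. Both otk and Alk lie on chromosome 2R, and strain differences cannot be told apart from the edit for otk either.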

How the data were processed

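Bulk RNA-seq values of 6 libraries, 3 Alk-YS and 3 control, were used. The submitters' processing notes name HISAT2 2.0.5, featureCounts 1.5.0-p3 and DESeq2 1.20.0, and the methods name the BDGP6 assembly. Strand setting and annotation release were not given in the sources used here. The signal values deposited by the authors are gene read counts divided by a size factor, and all were whole multiples of 1 read (tolerance 1e-06). The deposited FPKM values were used to compare genes. The authors' own fold changes and p-values were not used.

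Differences were tested with limma 3.58.1 (R 4.3.3, two-sided, mean-variance trend) on log2(normalized count + 1), over genes with a mean of at least 10. Fold changes on this scale understate those of low genes. The fit was tested on simulated data. Alternatives were edgeR 4.0.16, DESeq2 1.42.0, TMM scaling, pseudocounts of 5 and 0.1, other filters (none, a mean of 50), the FPKM table, a replicate block and leaving out each library. Named genes were the 10 receptors, list genes with an adjusted p under 0.05, ligands, and the largest change of each list. Others (aos, kek1, Gfrl, InR, sgl, sfl, otk2, Drl-2, Alk, NimC1, eater and neighbouring genes) were named after their values were seen. The receptors and lists were chosen with earlier results of these data known. Gene structures were read from Ensembl release 115, in which all receptor coordinates matched.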

Additional observations from a re-analysis of the deposited data

How the results depend on the processing

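No receptor was called in any alternative, the lowest limma adjusted p being 0.240 for Ror. Outside the fits that left a library out, every receptor's log2 fold change kept its direction. When a library was left out, 4 receptors changed sign. These were Egfr (-0.031 to 0.14, negative without control 2), btl (-0.26 to 0.035, positive without control 3), Eph (-0.084 to 0.018, positive without Alk-YS 1 or control 1) and Cad96Ca (-0.096 to 0.053, positive without Alk-YS 2, Alk-YS 3 or control 3). The number of ligand, cofactor and adaptor genes called was 1, Exn, and ranged from 0 to 1 when a library was left out. It was 0 with the FPKM table. Same-numbered deviations of the genotypes correlated at -0.121, 0.354 and 0.408, and differently numbered ones at -0.481 to 0.321. These values do not settle whether the replicate numbers pair the samples. With the replicate block the number of ligand, cofactor and adaptor genes called was 0, the limma adjusted p of Exn being 0.0739. In that fit 284 genes were called in all, against 287, and 0 receptors. Over all genes DESeq2 called 612, 259 of them higher, and the count ranged from 105 (without control 2) to 336 (without control 3) when a library was left out. The cause of these differences was not tested.

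Counting error limited Ret and btl, and 3 libraries per genotype limit every interval. Levels of protein, receptor activity and cell types were not measured.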
